A study of Mus musculus with 6 samples.

Results

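The genes described here encode the enzymes and carriers that burn long-chain and medium-chain fatty acids in mitochondria: Cpt1a, Cpt2, Slc25a20, Acadvl, Acadl, Acadm, Echs1, Hadha, Hadhb and Acaa2. They were picked by gene symbol, 10 of the 37074 gene names on the arrays, with earlier results of these data known. In all, 14 probes carried these names, with 7 genes read by 1 probe and 3 by several. Of the 14 probes, 13 were well above background on all 6 arrays and were tested, and the second Cpt2 probe was not. The arrays measured RNA of lineage−Sca-1+c-Kit+ (LSK) cells, the bone marrow fraction that holds haematopoietic stem cells and multipotent progenitors, sorted from C57BL/6 mice 6 to 8 days old. Control mice were Atg5w/w;VaviCre+ (n = 3) and mice lacking the autophagy gene Atg5 in blood cells were Atg5f/f;VaviCre+ (n = 3), called Atg5f/f;Vav below. Both groups therefore carried the Vav-iCre transgene, which acts across haematopoietic tissue from fetal life on and not in stem cells alone. How many mice stand behind a sample is not given in the labels, so p-values measure the spread between these samples, which may be technical.

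A long-chain fatty acid enters the mitochondrion as an acylcarnitine. Cpt1a makes it at the outer membrane in the step that limits the rate of the pathway, Slc25a20 carries it across the inner membrane and Cpt2 turns it back into an acyl-CoA. Each round of beta-oxidation then takes a dehydrogenation, a hydration, a second dehydrogenation and a thiolytic cleavage, with separate enzymes for different chain lengths, and haematopoietic stem cells are known to draw on this pathway for their maintenance.

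Of the 10 genes, 5 rose in Atg5f/f;Vav LSK cells: Acadl, Hadhb, Acaa2, Slc25a20 and Cpt2, by 1.36-fold to 1.87-fold. None fell by the same test, limma with Benjamini-Hochberg adjustment over all probes at a threshold of 0.05, where 0 of 10 genes also fell at an unadjusted p under that value and 8 rose. Across all 20774 genes tested 18.7% were called higher and 15.3% lower. The median log2 fold change of the 10 genes was 0.39, against −0.03 over all genes tested. The highest control array lay below the lowest Atg5f/f;Vav array for 9 of the 10 genes, a pattern shown by 29.6% of all genes, and for Acadm the order was opposite, as for 26.3% of all genes.

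**Figure D1:**
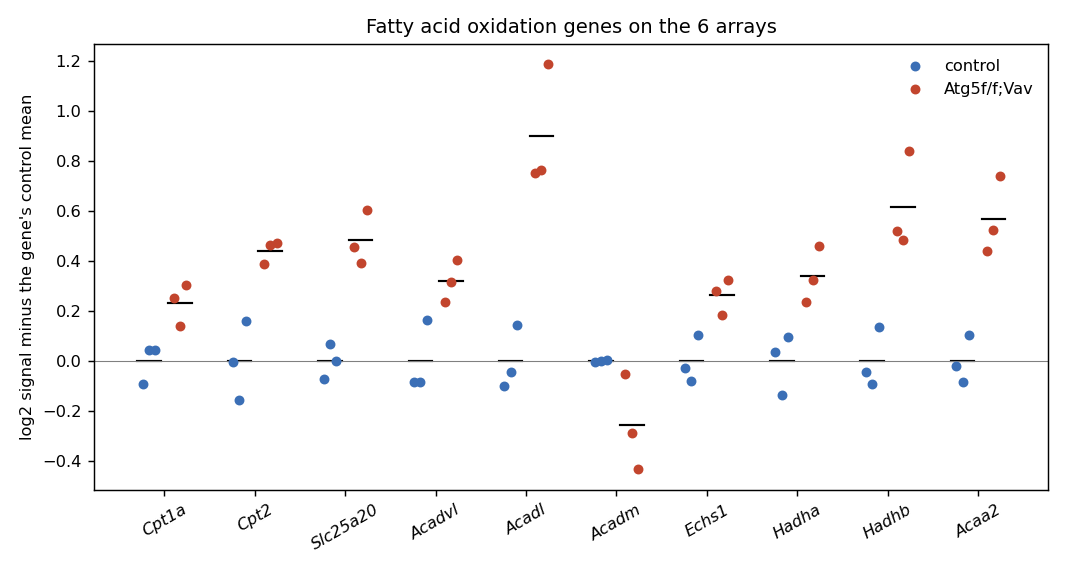
Log2 signal of the 10 fatty acid oxidation genes on each array, given as the distance from that gene's mean over the 3 control arrays (vertical axis, log2 units); blue points are control, red points Atg5f/f;Vav and black bars group means (n = 3). Red points lie above the blue points for 9 genes and below them for Acadm, with the widest gap for Acadl.

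The arrays differed in ways that touch every value below. All 6 lay on 1 slide, with the control arrays in row 1 and the Atg5f/f;Vav arrays in row 2, so that position on the slide and genotype cannot be told apart. Between 57.6% and 58.1% of probes were well above background on the control arrays and between 51.6% and 54.8% on the Atg5f/f;Vav arrays. The Atg5 probe read 1.03 ± 0.08 (SD, n = 3) in control and 1.57 ± 0.15 in Atg5f/f;Vav cells (log2 fold change 0.54, adjusted p = 0.0209). It starts at base 2251 of the transcript, on chr10:44083997-44084056 (mm9), and whether the deleted part covers it could not be read from the files, so it does not check the labels. Of the gate's own markers, Kit was well above background on all 6 arrays (log2 fold change −0.38, adjusted p = 0.0563; of its 3 probes 2 were called lower, with the lowest at −0.67) and Ly6a, which encodes Sca-1, rose by 1.57 on the log2 scale (adjusted p = 0.00624).

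In the carnitine shuttle, Slc25a20 and Cpt2 were called higher and Cpt1a was not, while all 3 genes shifted in the same direction. Values are log2 signals, meaning log2 of the processed spot signal over the array's 75th percentile; levels of different genes come from different probes and are not compared. Cpt1a read 2.91, 3.05 and 3.05 on control arrays 1 to 3 and 3.26, 3.15 and 3.31 on Atg5f/f;Vav arrays 1 to 3. The groups did not overlap, but the log2 fold change of 0.23 (SE 0.11) had an adjusted p of 0.129 in limma and a 95% interval from −0.02 to 0.49.

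Slc25a20, the carnitine-acylcarnitine translocase, read −1.88, −1.74 and −1.81 in control and −1.36, −1.42 and −1.21 in Atg5f/f;Vav cells. Every Atg5f/f;Vav array was higher, with a log2 fold change of 0.48 (SE 0.11, limma adjusted p = 0.0215). Its only probe begins at base 867 of the transcript (chr9:108585399-108585458, mm9, plus strand), and its sequence, shown because this call rests on these 60 bases alone and reads open in 1 frame as coding sequence does, is given 5′ to 3′.
Slc25a20: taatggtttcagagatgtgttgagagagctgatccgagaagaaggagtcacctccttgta

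Cpt2, the inner-membrane carnitine palmitoyltransferase, read 1.84, 1.69 and 2.003 in control and 2.23, 2.31 and 2.31 in Atg5f/f;Vav cells. The Atg5f/f;Vav arrays were close together and all above control, with a log2 fold change of 0.44 (SE 0.12, limma adjusted p = 0.0318). A second Cpt2 probe, at base 909 (chr4:107580325-107580384, mm9, minus strand), read −6.22, −5.96 and −4.59 in control and −4.31, −4.62 and −4.85 in Atg5f/f;Vav cells. It was well above background on 2 arrays only and was not tested, so the call rests on the probe at base 2253.

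The log2 ratio of Cpt1a to Cpt2, entry over re-conversion, changed by −0.21 from control to Atg5f/f;Vav. The 2 groups did not overlap, and the two-sided exact permutation test gave p = 0.1, the smallest that 3 arrays against 3 can give. Adjusted over the 4 ratios examined, p was 0.133. Without control replicate 2 the change was −0.11.

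Of the 3 acyl-CoA dehydrogenases, which open each round of oxidation, Acadl was called and Acadvl and Acadm were not. Acadl, the long-chain enzyme, read 1.48, 1.54 and 1.73 in control and 2.34, 2.35 and 2.77 in Atg5f/f;Vav cells. It had the largest difference of the 10 genes, a log2 fold change of 0.90 (SE 0.16, limma adjusted p = 0.0154), or 1.87-fold with a 95% interval from 1.45 to 2.41. Of all genes tested, 95.9% had a lower log2 fold change.

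Acadvl, the very-long-chain enzyme, read 2.998, 2.999 and 3.24 in control and 3.32, 3.40 and 3.49 in Atg5f/f;Vav cells. The groups did not overlap, and the log2 fold change of 0.32 (SE 0.12) missed the threshold in limma (adjusted p = 0.0757). Acadm, the medium-chain enzyme, read 2.88, 2.88 and 2.88 in control and 2.83, 2.59 and 2.45 in Atg5f/f;Vav cells. The 3 control arrays agreed within 0.0039 (SD), the Atg5f/f;Vav arrays spread by 0.19 (SD) below them, and the log2 fold change of −0.26 (SE 0.13) had an adjusted p of 0.153 in limma and a 95% interval from −0.56 to 0.05. Scaled on the spiked-in control RNAs instead, Acadm differed by 0.29 in the other direction, while the median of all probes shifted to 0.48.

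The change in log2 ratio of Acadvl to Acadm was 0.58, from 0.20 ± 0.14 in control to 0.78 ± 0.28 in Atg5f/f;Vav cells (SD, n = 3). On single arrays this ratio was 0.12, 0.12 and 0.36 in control and 0.49, 0.80 and 1.03 in Atg5f/f;Vav cells. The groups did not overlap (exact permutation p = 0.1, adjusted over 4 ratios 0.133). A ratio within an array does not depend on how the array was scaled, apart from quantile normalisation, which gave 0.55.

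**Figure D2:**
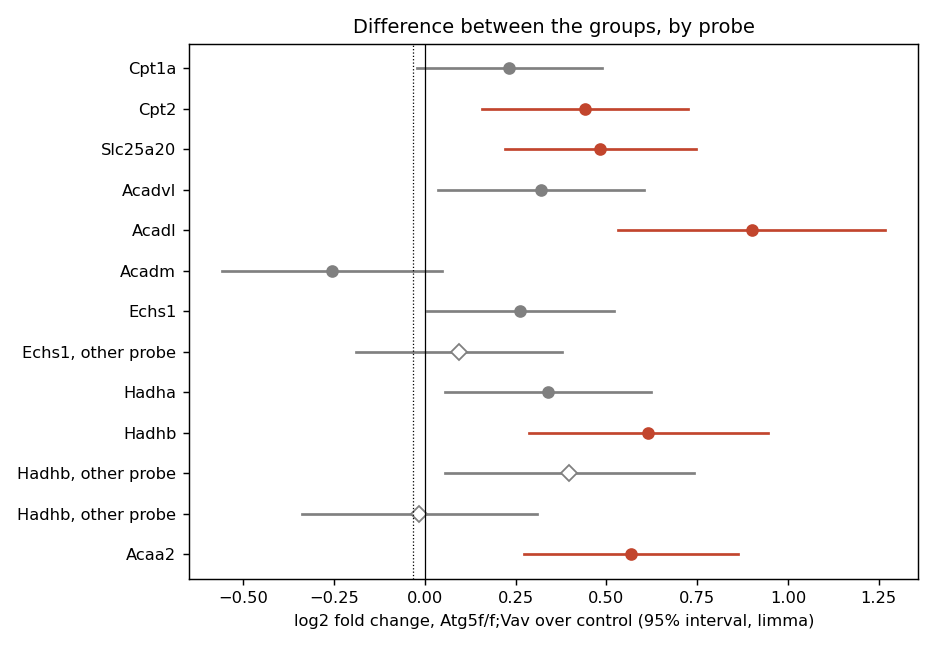
Log2 fold change (Atg5f/f;Vav over control, horizontal axis) with its 95% interval from limma for the 13 tested probes; circles are the probes that stand for a gene, open diamonds its other probes, red marks adjusted p under 0.05, and the dotted line is the median of all genes tested (−0.03). Intervals of the 5 called genes lie above 0. Those of Acadvl, Hadha, the brighter Echs1 probe and the second Hadhb probe, none of them called, also lie above 0. The intervals are not adjusted for the number of probes tested. Acadm lies to the left of 0 with an interval that includes it, and the third Hadhb probe sits at −0.02.

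Echs1, the short-chain enoyl-CoA hydratase, was read by a pair of probes at opposite ends of the transcript. The brighter one, at base 1281, read 2.66, 2.61 and 2.79 in control and 2.96, 2.87 and 3.01 in Atg5f/f;Vav cells. Its groups did not overlap, but the log2 fold change of 0.26 (SE 0.11) missed the threshold in limma (adjusted p = 0.0984). The probe at base 29 (chr7:147302234-147302293, mm9, minus strand) differed by 0.09 (adjusted p = 0.563) with overlapping groups. It is shown because it opens with an ATG, in capitals, with no stop in frame behind it.
Echs1, 5′ probe: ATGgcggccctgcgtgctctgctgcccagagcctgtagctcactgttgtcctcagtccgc

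Hadha and Hadhb encode the alpha and beta subunits of the mitochondrial trifunctional protein, which carries out the last 3 steps for long chains on the inner membrane. Hadha read −0.31, −0.49 and −0.26 in control and −0.12, −0.03 and 0.11 in Atg5f/f;Vav cells. Its groups did not overlap, and the log2 fold change of 0.34 (SE 0.12) missed the threshold in limma (adjusted p = 0.0647). Hadhb read 2.67, 2.62 and 2.85 in control and 3.23, 3.20 and 3.55 in Atg5f/f;Vav cells, all of them higher, with a log2 fold change of 0.62 (SE 0.14, limma adjusted p = 0.0207).

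The 3 Hadhb probes did not give the same answer. The value above comes from the brightest, at base 1866. Averaged over its probes, Hadhb differed by 0.33 and lost its call (adjusted p = 0.0882), which left 4 of the 10 genes called higher. The probe at base 970 (chr5:30503442-30503500, mm9, plus strand) differed by 0.40 with groups that did not overlap (adjusted p = 0.0703). The third, designed on a separate Ensembl transcript, read −0.22, −0.39 and −0.06 in control and −0.39, −0.24 and −0.09 in Atg5f/f;Vav cells, a difference of −0.02 (adjusted p = 0.935). The probe at base 970 is shown because it lies on the same transcript as the brightest and reads open in 1 frame, as coding sequence does.
Hadhb, base 970: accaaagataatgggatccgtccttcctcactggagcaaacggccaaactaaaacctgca

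The log2 ratio of Hadha to Hadhb changed by −0.28 (exact permutation p = 0.1, adjusted 0.133), with −2.98, −3.11 and −3.10 on control arrays and −3.35, −3.23 and −3.45 on Atg5f/f;Vav arrays. This direction depended on the probe and the scaling: when the probes of each gene were averaged the change was 0.0073, and after quantile normalisation it was 0.029.

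Both genes start from the same stretch of chromosome 5, back to back. RefSeq on GRCm38.p6 places the start of Hadha at base 30154980 on the minus strand and that of Hadhb at base 30155253 on the plus strand, which leaves 272 bases between them, 60.3% of them G or C. The stretch, chr5:30154981-30155252, is printed on the plus strand, that is in the direction of Hadhb, because the promoters of both subunits lie within it. Capitals mark GGGCGG, the core letters of a GC box, searched on both strands.
Hadha-Hadhb, shared stretch: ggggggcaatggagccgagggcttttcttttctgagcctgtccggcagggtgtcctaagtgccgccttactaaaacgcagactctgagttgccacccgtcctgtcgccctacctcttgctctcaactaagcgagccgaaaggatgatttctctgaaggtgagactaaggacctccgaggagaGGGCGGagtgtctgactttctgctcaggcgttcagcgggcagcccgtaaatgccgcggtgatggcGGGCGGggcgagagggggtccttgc

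Both GGGCGG matches read on the plus strand and end 85 and 20 bases before the Hadhb start. Of the motifs named below, the others searched in this stretch (AGGTCA, the CCAAT box and the E-box CACGTG) have no match in these letters. RefSeq promoter windows, 250 bases before and 50 after the start, were given for 9 of the 10 genes. A gene was counted if any window given for it held the motif, while the share of all promoters counts each window. GGGCGG occurred in 7 of the 9, all but Acadm and Acadvl, against 35.7% of all 32851 promoters. Hadha and Hadhb count separately in this, though their windows overlap and share the match 85 bases before the Hadhb start. AGGTCA, the core letters bound by nuclear receptors such as the PPARs and the oestrogen-related receptors, occurred in 4 of 9 (Cpt1a, Acadm, Acadvl and Echs1), against 16.3% of all promoters. CCAAT occurred in 1 of 9 (Cpt1a; 37.4% of all promoters). CACGTG occurred in 0 of 9, against 7.15% of all promoters. The longer TCACGTGA, which holds that E-box, occurred in 0 of 9, against 0.974%. The longer TCAAGGTCA, an oestrogen-related receptor motif that holds the nuclear receptor letters, also occurred in 0 of 9, against 0.423%. A match of letters is no more than that.

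Acaa2, the mitochondrial thiolase that cleaves medium-chain products, closes the cycle. It read 3.66, 3.60 and 3.78 in control and 4.12, 4.21 and 4.42 in Atg5f/f;Vav cells. All Atg5f/f;Vav arrays were higher, with a log2 fold change of 0.57 (SE 0.12, limma adjusted p = 0.0197). The log2 ratio of Hadhb to Acaa2, the beta subunit's thiolase over the soluble one, changed by 0.05, with overlapping groups (exact permutation p = 0.4). It was 0.11 after quantile normalisation, and when the probes of each gene were averaged it turned to −0.24.

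Across the genes the same array tended to be farthest out. Atg5f/f;Vav replicate 3 was the highest of its group for 9 of the 10 genes and the lowest for Acadm; over all genes tested it was the highest for 44.7% and the lowest for 35.4%. Control replicate 3 was the highest of its group for 8 of 10, against 43.0% of all genes. Replicate 3 of Atg5f/f;Vav also had the fewest probes above background (51.6%), and the part of this in the result was not tested. Without it, 4 of the 10 genes were called higher, the median log2 fold change was 0.35, and Cpt2 lost its call (adjusted p = 0.0517). Without Atg5f/f;Vav replicate 2 the count was also 4, again with Cpt2 lost (adjusted p = 0.0800). Without control replicate 1 or control replicate 2 no gene was called in limma, while 5 genes passed an unadjusted p under 0.05 in each case and the median remained between 0.32 and 0.40.

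The size of the differences followed the scaling of the arrays. With quantile normalisation 2 genes were called higher (Slc25a20 and Acadl) and 1 lower (Acadm), and Cpt1a and Echs1 turned to −0.044 and −0.0024 without a call. With the percentile taken over detected probes only, 4 genes were called higher and Acadm lower, while all probes shifted to a median of −0.22. Scaled on the spike-ins, 3 genes were called higher and 0 lower (at an unadjusted p under 0.05, 8 and 0), with a median of 0.93 against 0.48 for all probes. In each of these, 8 or 9 of the 10 genes lay above the median of all probes.

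**Figure D3:**
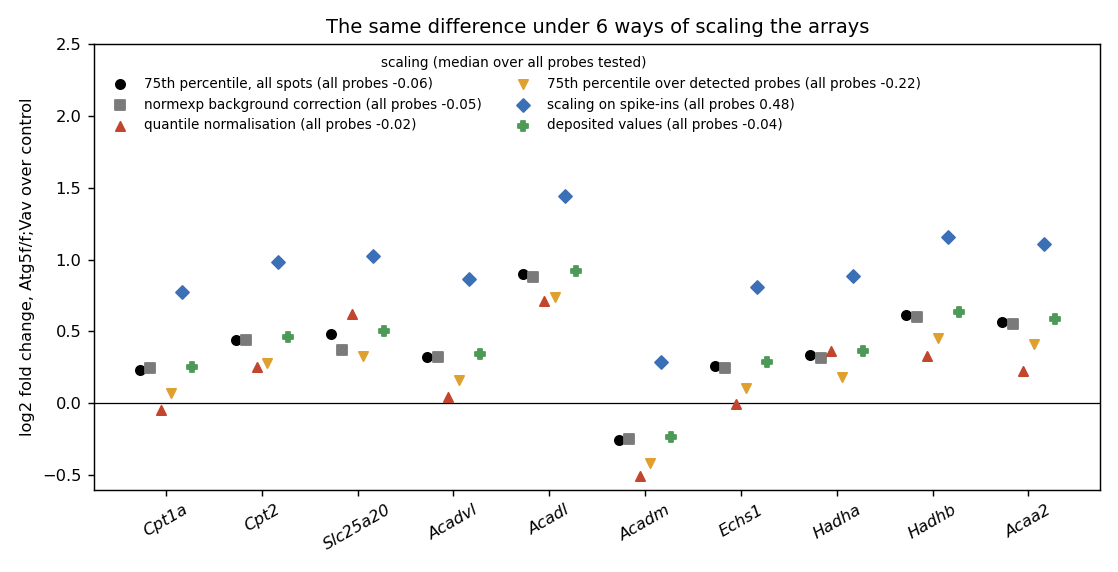
Log2 fold change (Atg5f/f;Vav over control, vertical axis) of the 10 genes under 6 ways of scaling the arrays, 1 symbol per scaling, with the median of all probes tested under that scaling in the legend. Acadm is the lowest gene under each scaling shown and Acadl the highest, and spike-in scaling lifts all genes, Acadm to 0.29.

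The genes around the core pathway were examined as 10 lists that hold 109 further genes on the arrays, 99 of them tested. Of the 99, 24 were called higher and 5 lower, with a median log2 fold change of 0.20; 1 of the lower calls, Ppargc1a, passed the filter on low values only through the control arrays. Scaling changed this split to 13 and 8 under quantile normalisation, to 18 and 13 with the percentile over detected probes and to 20 and 1 on spike-ins, and it was 0 and 0 without control replicate 1 and 1 and 0 without control replicate 2 (at an unadjusted p under 0.05, 23 and 8 and 24 and 6).

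Fatty acid activation and binding came first in the path and had 4 of 10 tested genes higher and 1 lower (median 0.36). Acsl5, an acyl-CoA synthetase, read 1.98, 1.99 and 2.15 in control and 2.88, 2.94 and 3.56 in Atg5f/f;Vav cells. It was higher on every Atg5f/f;Vav array (log2 fold change 1.09, adjusted p = 0.0161), though a second Acsl5 probe differed by −0.08. Fabp5, a fatty acid binding protein, rose by 0.81 (adjusted p = 0.0167) and Dbi, the acyl-CoA binding protein, by 0.47 (adjusted p = 0.0332). Slc27a1, a fatty acid transporter, fell by 0.45 on the log2 scale (adjusted p = 0.0284). Of the 6 other carnitine genes, among them Crat and Crot, 0 were called in either direction by their brightest probe (median 0.01). The other Crot probe was called lower, at −0.56.

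The other enzymes of mitochondrial beta-oxidation, 15 tested, gave 2 higher and 1 lower (median 0.18). Some genes not called by their brightest probe had other probes called. For Acad9 these were 2 of 4, higher, and for Acadsb 2 of 3, lower. Eci2 had 1 probe called higher and Acad11 had 1 called lower. Eci1, the isomerase that lets unsaturated chains through, rose by 0.53 (adjusted p = 0.0171) and Acot9, an acyl-CoA thioesterase, by 0.52 (adjusted p = 0.0236). Acot2, another mitochondrial thioesterase, fell by 0.41 on the log2 scale (adjusted p = 0.0375), with the limit that Acot1 and Acot2 are near-identical in sequence and a probe may read both. Acads, the short-chain dehydrogenase, differed by 0.22 (adjusted p = 0.176) and Hadh, the soluble hydroxyacyl-CoA dehydrogenase, by −0.27 (adjusted p = 0.231), and neither was called.

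Electrons from the acyl-CoA dehydrogenases pass to the electron transfer flavoprotein, and both of its subunits rose. Etfb read 5.43, 5.48 and 5.68 in control and 6.01, 6.14 and 6.18 in Atg5f/f;Vav cells. All Atg5f/f;Vav arrays were higher (log2 fold change 0.58, adjusted p = 0.0175), and both probes of the gene were called. Etfa read 3.19, 3.20 and 3.27 in control and 3.45, 3.62 and 3.69 in Atg5f/f;Vav cells (log2 fold change 0.36, adjusted p = 0.0446), with all 3 probes called. Etfdh, which hands the electrons to ubiquinone, differed by 0.34 and was not called (adjusted p = 0.0879), and its second probe differed by −0.38.

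Among odd-chain and ketone body genes, 2 of 8 tested rose and 0 fell (median 0.33). Pcca, a propionyl-CoA carboxylase subunit, rose by 0.93 (adjusted p = 0.0167), with 2 of its 3 probes called. Peroxisomal beta-oxidation, which shortens very long chains in another organelle, had 0 of 13 tested genes higher and 1 lower (median 0.06).

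**Figure D4:**
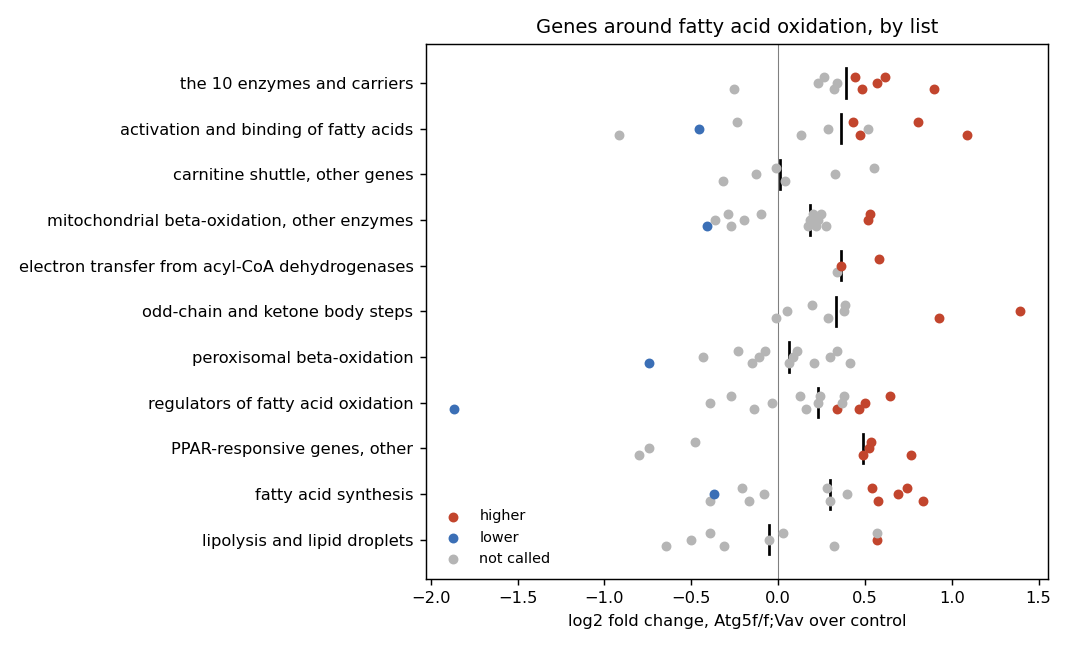
Log2 fold change (Atg5f/f;Vav over control, horizontal axis) of each tested gene by list, with the 10 enzymes and carriers at the top; red points were called higher, blue lower and grey not called, and black bars are list medians. Bars run from −0.05 for lipolysis to 0.49 for PPAR-responsive genes. The point farthest to the left, Ppargc1a, is a fitted value of a probe not above background in Atg5f/f;Vav cells, so its size is not known.

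Of the regulators of the pathway, 4 of 15 tested were called higher and 1, Ppargc1a, lower (median 0.23). Esrra, a nuclear receptor that activates genes of oxidative metabolism, read 1.37, 1.44 and 1.67 in control and 2.02, 1.97 and 1.99 in Atg5f/f;Vav cells (log2 fold change 0.50, adjusted p = 0.0230), though its second probe differed by −0.07. Stk11, the kinase upstream of AMPK, rose by 0.65 (adjusted p = 0.0289) and Prkag1, an AMPK subunit, by 0.46 (adjusted p = 0.0380). Ppargc1a, the co-activator PGC-1alpha, read −3.41, −4.20 and −3.89 in control and was not well above background on any Atg5f/f;Vav array. It passed the filter only through the control arrays, so its call is a description and no support. Its control mean was 2.67-fold above the dimmest signal that still counted as above background on each Atg5f/f;Vav array, or the probe's own where higher. That is no strict limit, because some probes brighter than that signal, such as Cd36, also failed the flag. The size of the fall is therefore not known. Ppargc1b differed by 0.23 (adjusted p = 0.183) and Ppard by −0.14 (adjusted p = 0.334), neither called, and Ppara was not well above background on any of the 6 arrays.

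Of the other genes known to respond to PPARs, 4 of 7 tested were called higher and 0 lower (median 0.49). The rest of those tested lay lower in Atg5f/f;Vav cells without a call. Their log2 fold changes were −0.80 for Acot1 (limma adjusted p = 0.0649), −0.74 for Fabp4 (0.103) and −0.48 for Lpl (0.0656). Pdk4, Cyp4a10 and Fgf21, also on this list, were well above background on no more than 1 array and were not tested. Angptl4, an inhibitor of lipoprotein lipase, read 1.77, 1.72 and 1.98 in control and 2.48, 2.51 and 2.79 in Atg5f/f;Vav cells (log2 fold change 0.77, adjusted p = 0.0156). Ucp2 rose by 0.54 (adjusted p = 0.0207) and Ucp3 by 0.52 (adjusted p = 0.0329), both mitochondrial carriers. The fatty acid synthesis list, with its elongases, desaturases and mitochondrial enzymes, had 5 of 13 tested genes higher and 1 lower (median 0.30). Elovl1, an elongase, rose by 0.83 (adjusted p = 0.0159), and Mcat and Mecr, of mitochondrial fatty acid synthesis, by 0.74 (adjusted p = 0.0169) and 0.69 (adjusted p = 0.0226). Fads1, a desaturase, fell by 0.37 on the log2 scale (adjusted p = 0.0365), while another of its 3 probes differed by 0.36. Lipolysis and lipid droplet genes had 1 of 9 higher, Pnpla2, the triglyceride lipase (log2 fold change 0.57, adjusted p = 0.0171), and 0 lower (median −0.05).

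Marker genes of cell types moved between the same arrays, and in a bulk sample fewer cells of a type and less RNA per cell cannot be told apart. Of 8 stem cell markers, 5 fell and 0 rose, among them Mecom (log2 fold change −1.75) and Hlf (−1.65), while Hoxb5, at −1.76, was not called (adjusted p = 0.0690). Their summed log2 level ran from 4.59 to 4.87 in control and from 2.84 to 3.78 in Atg5f/f;Vav cells. This level, here and below, is log2 of the genes' added linear signals, so the brightest probes weigh most. Of 9 erythroid markers, 3 rose (Car1 by 3.80 and Klf1 by 2.95 among them) and 5 fell (Slc4a1 among them), with a summed log2 level from 8.46 to 9.50 in control and from 7.19 to 7.53 in Atg5f/f;Vav cells. Of 9 neutrophil markers, 3 rose (Ctsg by 1.91) and 5 fell (S100a8 and Ltf among them), with summed log2 levels from 7.498 to 8.22 and from 7.93 to 8.24. The part of these shifts in the fatty acid oxidation values was not tested.

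Cells outside the blood lineages were checked the same way. Of the 8 stromal and adipocyte markers, 6 were tested, 3 were called lower (Col1a1, Col1a2 and Sparc) and 0 higher, though Col1a1 passed the filter only through the control arrays. Adipoq and Pdgfra were not well above background on any array. Col1a1 read −4.14, 3.23 and 2.95 in control, so that control replicate 1 lacked what the other control arrays showed. The part of these markers in the fatty acid oxidation values was not tested. Of 5 muscle markers, Ckm, Acta1 and Mb were not well above background on any array, and Tnnt3 fell by 1.11 on the log2 scale (adjusted p = 0.0172). The remaining lists gave 1 of 4 tested genes lower for macrophages (Lyz2) and 1 of 6 higher for B cells (Cd79a). Cd79a was well above background on only 1 control array, so it met the filter through the Atg5f/f;Vav arrays. Megakaryocyte markers gave 1 higher and 2 lower of 5, and 1 of the lower calls, Ppbp, passed the filter only through the control arrays. T and NK cells gave 0 of 5 in either direction, and mast cells and eosinophils 0 of 5.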

How the data were processed

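Microarray data of 6 LSK samples were used. Per the file headers, the authors' 1-colour Agilent arrays (design coordinates on mm9) were read with Agilent Feature Extraction 12.0.3.1, which gave each spot a background-subtracted processed intensity and flags for background, outliers and saturation (no spot was saturated). The deposited value table holds a signal per spot, the same intensity divided by the array's 75th percentile (column medians 0.0673 to 0.0892); it was used as an alternative, and its linear scale was read from the values. Here, processed intensity was divided by its 75th percentile on that array, over the 59305 spots other than controls, and log2 was taken, outlier-flagged spots were left out, and spots of a probe were averaged. A probe was tested if 3 or more of the 6 arrays had it well above background (32075 of 56605 probes). The test was limma (version 3.58.1, R version 4.3.3), by lmFit and eBayes, with Benjamini-Hochberg adjustment over all of them. The probe with the highest mean signal stood for a gene. Ratios between genes were tested by exact permutation. The procedure was tested on simulated data. Members and gene lists were chosen with earlier results of these data known. All 10 genes, Atg5 and 10 regulators or partners were named whatever their values. Of each list, at most 3 genes called higher, 3 called lower, or, for markers, the 3 largest differences were named. A few more, such as Lpl, Crot and Acad9, were named where a result needed a limit. The number of arrays limits the precision. Some items are not reported here.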

Additional observations from a re-analysis of the deposited data

How the results depend on the processing

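Background correction, scaling, filter, probe rule, test, replicate block and left-out arrays were varied, and array quality weights were added after seeing the data. The median log2 fold change of the 10 genes was above 0 in each. Normexp background correction called 7 genes higher, and 8 pathway genes lower. Quantile normalisation called 2 genes higher and 1 lower (median 0.24), 13 pathway genes higher and 8 lower; Cpt1a turned to −0.044 and Echs1 to −0.0024, the Hadha to Hadhb ratio to 0.029, and the Hadhb to Acaa2 ratio moved to 0.11. The percentile over detected probes gave 1 gene lower (median 0.23) and 13 pathway genes lower. Spike-in scaling gave 3 genes higher (median 0.93), 1 pathway gene lower, and Acadm at 0.29. Without a filter on dim probes 1 gene, 11 pathway genes and 3 in the lower direction were called, and the Atg5 probe (0.54) was not. An intensity trend gave 9 pathway genes lower, and array weights 38 higher and 15 lower. The methods' t-test gave 9 genes and 37 pathway genes at p under 0.05, and 0, 0 and 0 pathway genes lower after adjustment, where the Atg5 probe (0.54) also lost its call. When the probes of each gene were averaged 4 genes were called higher, with Hadhb lost (0.33, adjusted p = 0.0882), the Hadha to Hadhb ratio was 0.0073 and the Hadhb to Acaa2 ratio −0.24. The cause was not tested, except that leaving out an array lowers the degrees of freedom and dropping the filter adds tests.

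Leaving out 1 array at a time gave 0 to 5 genes called higher, 0 to 23 pathway genes higher and 0 to 8 lower, and Atg5 differences from 0.45 to 0.60; the counts were 0 without control replicate 1 and, for the 10 genes, without control replicate 2. With the replicate block 5 genes were called higher, 24 pathway genes higher and 4 lower; it changed no call among the 10 genes. Deviations of arrays with the same number correlated at −0.07, 0.19 and 0.11, and those of the other pairs at −0.30 to 0.13. With so few arrays these values cannot settle whether the numbers pair the samples.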
